A study of Arabidopsis thaliana with 9 samples.

Results

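NAC transcription factors were taken as the genes whose deposited name, ignoring case and an optional leading AT, is NAC or ANAC followed by digits. The rule found 92 genes among 32833 in the table and used no measured value. It leaves out NAC genes that the table lists under other names, such as RD26, and those are given separately as a group of 9. The samples were shoots of wild-type Arabidopsis thaliana (genotype Columbia-0) grown for about 4 weeks. They fell into 3 groups of 3 samples: control, submergence in still water for 30 min, and flooding with physical flow, in which the water moved past the plants at 8 L/s for 30 min. Per the study's methods each sample pooled the rosettes of several plants, the 3 samples of a group were independent biological replicates, and still water was held in a plastic container while moving water ran through an open channel, so the flow and the vessel cannot be told apart. Expression was measured by RNA-Seq of poly(A) RNA and deposited as FPKM, fragments normalized to the length of the transcript and to the mapped reads of the sample. Each comparison was fitted with limma on log2(FPKM + 0.1) over its 6 samples, using genes whose mean FPKM was 0.5 or more. A transcript with a Benjamini-Hochberg adjusted p under 0.05 over all tested genes was called up- or down-regulated.

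NAC proteins form a large family of transcription factors found in plants. They share a DNA-binding NAC domain at the amino-terminal end and differ in the carboxy-terminal part, which activates or represses target genes and in some members carries a membrane anchor. Anchored members are held at the endoplasmic reticulum or another membrane and reach the nucleus after they are released, so their activity is set partly after transcription. Members are known for roles in responses to abscisic acid, wounding and pathogens, in leaf senescence, in the building of xylem and in the separation of organs at the shoot apex. Several have been studied under low oxygen or waterlogging. All values below are transcript levels, and protein was not measured.

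The summed FPKM of all genes lay between 752248.71 and 786473.78 per sample. The leaf markers Rbcs1a, Lhcb1.1 and Ca1 together reached 11819 to 16555 FPKM in every sample, while the root hair marker Exp7 and the stem cell marker Clv3 were listed at 0 in all 9 samples. The root marker list, which was carried by the beta-glucosidase gene Pyk10, summed to 30.1 to 141 FPKM and overlapped between the groups. Markers of the shoot apex and inflorescence summed to 2.87 to 13.1 FPKM over 6 genes, with the highest sum in submergence replicate 1, and none was called. Submergence replicate 1 held the lowest value of its group for each of the 8 NAC transcripts up-regulated under submergence, so counts are given below with and without it. Flooding replicate 2 likewise held the lowest value of its group for 11 of the 15 NAC transcripts up-regulated under flooding. Over all genes flooding replicate 3 lay farthest from its group mean, at a median log2 distance of 0.159, beside 0.135 for submergence replicate 1.

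Most members were expressed at low levels in these rosettes. Of the 92 genes, 8 were listed at 0 in all 9 samples, 33 never passed the filter on low values and no value of those 33 exceeded 0.72 FPKM. A further 57 were tested in all 3 comparisons and 2 in some of them. Only 13 members had a mean of 20 FPKM or more over the 9 samples, and these 13 held 70.2% of the summed level of the family. In the control samples the highest mean FPKM was that of Nac083 (66.5 ± 18.7, SD, n = 3), followed by Nac041 (56.0 ± 5.95), Nac081 (42.7 ± 4.10), Nac102 (38.8 ± 2.36) and Nac078 (35.4 ± 1.39). The samples of Nac083 (46.5 to 83.4 FPKM) overlapped those of Nac041 (52.1 to 62.8), and those of Nac081 (39.2 to 47.2) overlapped those of Nac102 (36.7 to 41.3), so neither pair was ordered beyond its spread. The first 2 of these transcripts fell under both stresses and the other 3 rose under flooding.

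Under flooding 15 NAC transcripts were up-regulated and 10 down-regulated among the 58 tested. The called members were 43.1% of those tested, and of all 18806 genes tested in this comparison 28.5% were called, with 11.4% up and 17.2% down. This lean depended on the scaling: with median-of-ratios rescaling all genes gave 2622 up and 2299 down in place of 2137 up and 3229 down, and the members 16 up and 9 down. Under submergence 8 were up-regulated and 6 down-regulated among 59, which is 23.7%, beside 17.5% of all 18814 genes tested, with 9.03% up and 8.45% down. Over the tested members the log2 fold change had a median of 0.18 under flooding, where that of all genes was -0.10, and 0.17 under submergence, where that of all genes was -0.03. Calls with at least a 2-fold change numbered 15 under flooding (8.81% of all genes tested) and 9 under submergence (5.8% of all). In 31 members the 3 flooding samples did not overlap the 3 control samples, and in 28 the submergence samples did not, beside 46.6% and 38.5% of all genes.

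Of the 26 members called in either stress, 13 were called in both, 8 up and 5 down and each in 1 direction. A further 7 were called up and 5 down under flooding alone, and 1, Nac027, was called down under submergence alone. Over all genes 2512 were up-regulated in either stress, 2137 of them under flooding and 1698 under submergence. Down-regulated in either stress were 3607, with 3229 under flooding and 1590 under submergence. A call in both stresses was thus common beyond the family. Both comparisons used the same control samples, and a call in 1 stress alone does not show that the stresses differ. Without submergence replicate 1 the submergence calls became 14 up and 5 down, with Nac019, Nac047, Nac055, Nac068, Nac087 and Nac102 added to the rises. This replicate was picked for its low values among the called rises, so added rises without it follow partly from that choice. Over all genes, leaving out 1 sample gave 890 to 2019 up in place of 1698, and 489 to 2187 down in place of 1590. With quantile normalization the submergence calls of members were 5 up and 7 down, so the share of rises among the called members went from 57.1% to 41.7%. Over all called genes that share moved alike, from 51.6% to 41.5%.

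**Figure D1:**
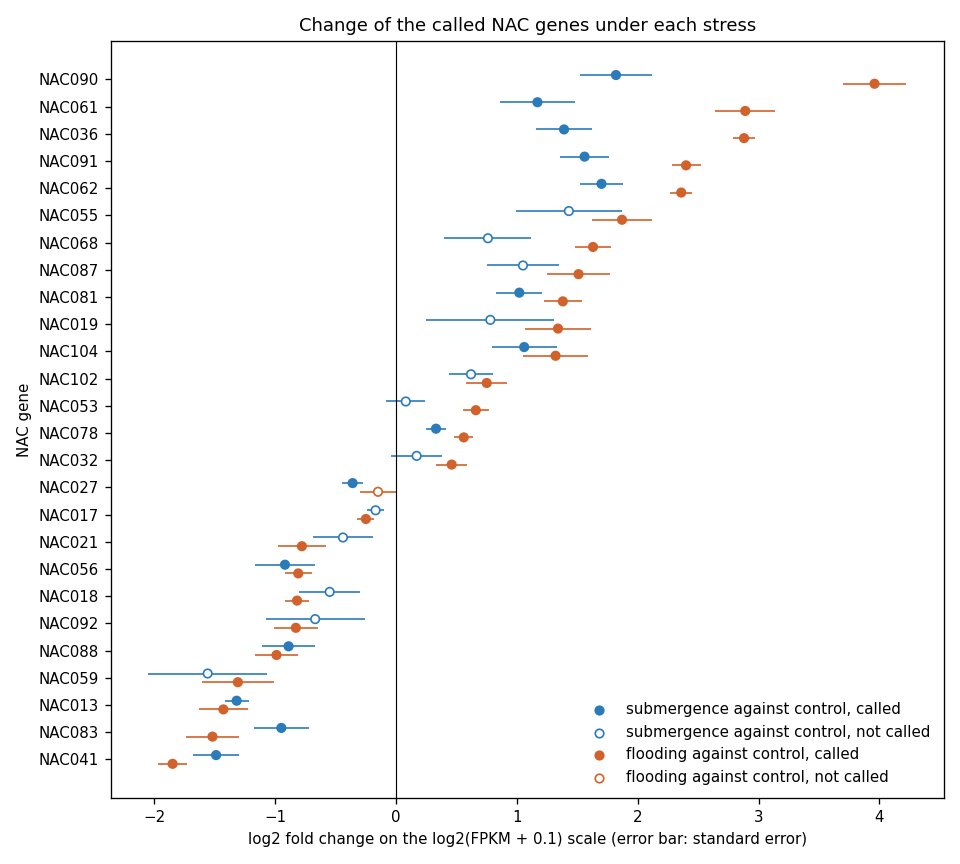
Log2 fold change of the 26 called NAC transcripts on the log2(FPKM + 0.1) scale, for submergence (blue) and flooding (orange) against control, with standard errors and filled points for calls at an adjusted p under 0.05. The points reach 3.96 for Nac090 and -1.85 for Nac041 under flooding, and no called member has filled points on both sides of 0.

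Nac090 had the largest called rise in each stress, but under submergence it was level with Nac062 within its error. Over the alternatives that submergence rise ran from 1.47 to 2.14 for Nac090 and from 1.54 to 1.9 for Nac062. Nac061, a close relative of Nac090 within the family, came next under flooding. There Nac061 was level with Nac036 within its error, and below Nac036 with a pseudocount of 1. Under submergence Nac061 was behind Nac062, Nac091 and Nac036. NAC090 is known as a repressor of leaf senescence and of salicylic acid responses. The upstream sequences of Nac090 and Nac061 are shown because they shared a layout of motifs. The 300 bases before each gene's annotated start were read from the TAIR10 genome at chr5:7410103-7410402 on the minus strand and chr3:16024520-16024819 on the minus strand. Each is written 5′ to 3′ towards the gene, with capitals marking TTGACT (a form of the W-box, the element of WRKY factors), ACGTG (the core of the abscisic acid response element) and CGCGTT (the rapid stress response element), searched on both strands.
NAC090: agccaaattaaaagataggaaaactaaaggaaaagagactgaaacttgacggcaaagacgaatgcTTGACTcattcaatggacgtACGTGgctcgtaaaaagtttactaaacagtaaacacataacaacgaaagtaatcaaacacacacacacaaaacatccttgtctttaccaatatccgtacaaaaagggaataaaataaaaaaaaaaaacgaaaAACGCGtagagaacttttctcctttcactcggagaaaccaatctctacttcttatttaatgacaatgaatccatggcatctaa
NAC061: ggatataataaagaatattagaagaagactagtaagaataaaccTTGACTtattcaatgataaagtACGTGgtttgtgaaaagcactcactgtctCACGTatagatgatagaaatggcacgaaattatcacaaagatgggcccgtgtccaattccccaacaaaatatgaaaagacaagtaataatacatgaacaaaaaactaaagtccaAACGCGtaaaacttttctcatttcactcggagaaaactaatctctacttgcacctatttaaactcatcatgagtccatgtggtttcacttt
With the last base before the gene as -1, TTGACT began at -235, ACGTG at -215 and CGCGTT at -83 in the Nac090 window. In the Nac061 window TTGACT began at -256, ACGTG at -234 and -205 and CGCGTT at -91, in the same order. A local alignment paired 262 bases of the windows, of which 199 (76.0%) were identical, and the longest run in common had 15 bases. Among the 105 pairs of windows of the 15 up-regulated members this pair had the highest alignment score, 76, beside 32 for the next pair and a median of 15. Windows of members that did not rise were not aligned. Whether related members without a rise share as much sequence was therefore not tested. The motifs were found in 22.0% (TTGACT), 25.6% (ACGTG) and 3.08% (CGCGTT) of all 27419 windows of protein-coding genes. A match describes these letters and is not evidence of binding.

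The Nac090 transcript (AT5G22380, chr5:7408759-7410102) stood at 1.83, 1.56 and 3.37 FPKM in the control samples, at 5.95, 8.91 and 8.87 under submergence and at 33.3, 32.7 and 38.2 under flooding. The 3 groups did not overlap, and each flooding sample lay above every submergence sample. Nac090 rose by 1.82 on the log2 scale under submergence (SE 0.30, adjusted p = 0.00863, limma) and by 3.96 under flooding (SE 0.26, adjusted p = 3.61e-05), a 15.6-fold change.

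Nac061 (AT3G44350, chr3:16022575-16024519) followed at a far lower level, with 0.46, 0.30 and 0.57 FPKM in the control samples, 0.84, 1.24 and 1.26 under submergence and 3.33, 4.26 and 4.02 under flooding. Here too the groups were fully separate in the same order. Nac061 rose by 1.17 under submergence (SE 0.31, adjusted p = 0.0446, limma) and by 2.89 under flooding (SE 0.25, adjusted p = 0.00016). The submergence call of Nac061 was held by 7 of 15 alternative settings and lost whichever control sample was left out, and with a pseudocount of 1 the changes of this low transcript were 0.55 and 1.75.

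Nac036 (AT2G17040, chr2:7406911-7408393), a gene known for dwarfing plants that overexpress it, became the most abundant NAC transcript of the flooded rosettes. Its level was 21.9, 18.7 and 20.4 FPKM in the control samples, 37.1, 72.8 and 55.5 under submergence and 149.8, 143 and 158 under flooding. All flooding samples lay above all submergence samples, which lay above all control samples. Nac036 rose by 1.39 under submergence (SE 0.23, adjusted p = 0.00828, limma) and by 2.88 under flooding (SE 0.09, adjusted p = 3.68e-06), and both calls were held under all 15 alternatives. The window upstream of Nac036 held none of the motifs searched.

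**Figure D2:**
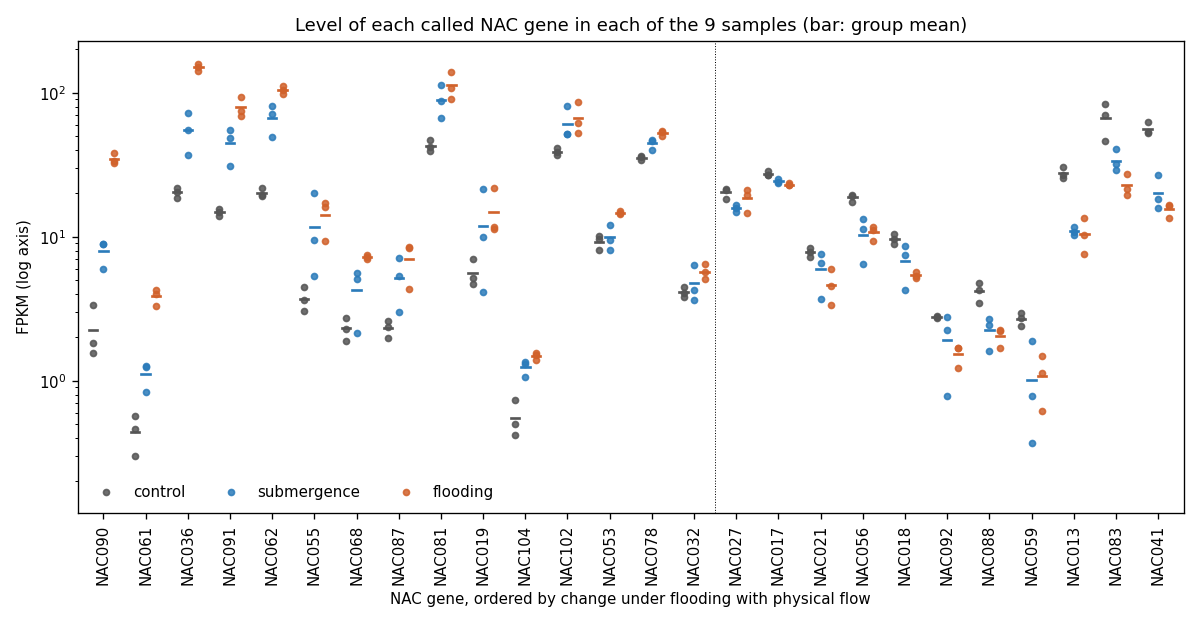
FPKM of the 26 called NAC transcripts in each of the 9 samples on a log axis, ordered by their change under flooding, with bars at the group means of 3 samples and a dotted line between rises and falls. Nac036 moves from a control mean of 20.3 to 150.2 under flooding, while Nac041 moves from 56.0 to 15.5.

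Membrane-tethered NAC factors gave several of the strongest rises and also clear falls. Of 12 such members 11 were tested, of which 5 rose and 2 fell under flooding and 3 rose and 1 fell under submergence, with median log2 fold changes of 0.56 and 0.08. Over all genes tested, 11.4% rose and 17.2% fell under flooding, and 9.03% rose and 8.45% fell under submergence. NAC062, also named NTL6, is released from the membrane in the cold and on pathogen attack. NAC091, also named TIP, was found through its binding to the coat protein of turnip crinkle virus. Their upstream windows, at chr3:18364960-18365259 on the minus strand and chr5:8419077-8419376 on the minus strand, are shown for comparison with those of Nac090 and Nac061, with the same motifs in capitals and with CACGTG (the G-box, which holds ACGTG within it) added.
NAC062: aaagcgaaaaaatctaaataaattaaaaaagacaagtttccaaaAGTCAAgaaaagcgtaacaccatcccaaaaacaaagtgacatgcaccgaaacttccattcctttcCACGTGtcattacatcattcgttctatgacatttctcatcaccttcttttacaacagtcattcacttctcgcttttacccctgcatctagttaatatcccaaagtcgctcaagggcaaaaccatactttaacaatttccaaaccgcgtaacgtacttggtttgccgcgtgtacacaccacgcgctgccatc
NAC091: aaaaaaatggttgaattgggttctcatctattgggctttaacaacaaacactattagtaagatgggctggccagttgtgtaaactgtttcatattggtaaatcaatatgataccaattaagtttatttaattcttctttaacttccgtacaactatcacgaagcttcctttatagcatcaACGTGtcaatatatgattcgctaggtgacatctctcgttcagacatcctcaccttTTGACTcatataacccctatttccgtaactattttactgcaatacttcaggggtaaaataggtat
The Nac062 window held TTGACT on the opposite strand at -256 and CACGTG at -191. The Nac091 window held ACGTG at -120 and TTGACT at -65. CGCGTT was in neither. Over the 8 members up-regulated in both stresses, ACGTG was found in 5 windows, TTGACT in 4, CGCGTT in 2 and CACGTG in 1, and among all windows CACGTG was found in 7.08%. Over all 15 up-regulated members ACGTG was in 53.3% of windows and TTGACT in 26.7%. Over the 11 down-regulated members each was in 27.3%, so TTGACT was no more frequent among the rises than the falls. Over the 33 tested members called in neither stress ACGTG was in 36.4% and TTGACT in 9.09%, and over all 92 members in 34.8% and 17.4%. The W-box form TTGACC was in 0 of these 8 windows and in 14.0% of all. The mitochondrial dysfunction motif, which NAC013 and NAC017 bind in genes of mitochondrial retrograde signalling, was also in 0 of the 8 and in 2.08% of all.

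The Nac062 transcript (AT3G49530, chr3:18362443-18364959) had 19.2, 19.5 and 21.9 FPKM in the control samples, 49.2, 80.9 and 70.8 under submergence and 111, 97.3 and 104 under flooding. The groups did not overlap, and the lowest submergence sample was far above the highest control sample. Nac062 rose by 1.70 under submergence (SE 0.18, adjusted p = 0.00188, limma) and by 2.36 under flooding (SE 0.09, adjusted p = 5.48e-06).

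Nac091 (AT5G24590, chr5:8416375-8419076) had 15.5, 14.0 and 14.8 FPKM in the control samples, 31.2, 55.5 and 48.4 under submergence and 74.8, 68.7 and 93.7 under flooding. Its groups were separate in the same order as those of Nac062. Nac091 rose by 1.56 under submergence (SE 0.20, adjusted p = 0.00359, limma) and by 2.40 under flooding (SE 0.12, adjusted p = 1.26e-05).

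Nac068, which encodes the membrane-bound NTM1 known to limit cell division, was called under flooding. It had 1.89, 2.29 and 2.74 FPKM in the control samples, 2.15, 5.58 and 5.05 under submergence and 7.52, 7.28 and 6.99 under flooding. Submergence replicate 1 lay within the control range and the other 2 above it, while every flooding sample lay above all others. The change of Nac068 was 0.76 under submergence (SE 0.36, adjusted p = 0.194, limma) and 1.63 under flooding (SE 0.15, adjusted p = 0.000238). Its neighbour Nac069, 1072 bp away on the same strand, was not called, with a log2 fold change of -0.28 under flooding (adjusted p = 0.17).

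NAC053 and NAC078 act together in raising the genes of proteasome subunits. Nac078 had 36.5, 35.9 and 33.9 FPKM in the control samples, 40.2, 46.9 and 46.3 under submergence and 54.0, 53.1 and 49.7 under flooding, without overlap between any groups. Nac078 rose by 0.33 under submergence (SE 0.08, adjusted p = 0.0404, limma, held by 5 of 15 alternatives and lost whichever control sample was left out) and by 0.56 under flooding (SE 0.08, adjusted p = 0.00159). Nac053 had 10.11, 8.06 and 9.60 FPKM in the control samples, 8.14, 12.1 and 9.45 under submergence and 14.5, 14.3 and 15.1 under flooding. Its submergence samples overlapped the control samples, and its flooding samples lay above both. Nac053 changed by 0.08 under submergence (SE 0.16, adjusted p = 0.772, limma) and rose by 0.66 under flooding (SE 0.11, adjusted p = 0.00356). Nac053 is the last of 3 neighbouring members on chromosome 3, after Nac050 and Nac052, whose products are partners of the histone demethylase JMJ14. Those 2 were not called in either stress, with log2 fold changes between -0.08 and 0.14, and near-identical stretches among neighbours could share reads.

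Nac013 and Nac017, which encode factors of mitochondrial retrograde signalling, fell. NAC017 is also known for a part in tolerance to submergence. Nac013 (AT1G32870, chr1:11911631-11913947) had 26.9, 30.4 and 25.5 FPKM in the control samples, 11.8, 10.3 and 10.9 under submergence and 13.5, 10.3 and 7.60 under flooding. All stressed samples lay below all control samples, and the stresses overlapped each other. Nac013 fell by 1.32 under submergence (SE 0.10, adjusted p = 0.000763, limma) and by 1.43 under flooding (SE 0.20, adjusted p = 0.00166), with both calls held under all 15 alternatives. Nac017 had 26.8, 26.9 and 28.5 FPKM in the control samples, 23.9, 23.7 and 25.2 under submergence and 23.5, 22.8 and 22.9 under flooding. Its change was small but its groups did not overlap. Nac017 changed by -0.17 under submergence (SE 0.07, adjusted p = 0.14, limma) and fell by 0.25 under flooding (SE 0.07, adjusted p = 0.0416), a call held by 6 of 15 alternatives.

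Of 7 reported targets of NAC013 and NAC017, 6 were tested. Under submergence 1 rose and 3 fell, beside 9.03% and 8.45% of all genes tested. Under flooding 1 rose and 2 fell, beside 11.4% and 17.2% of all genes. The count of flooding falls was 1 whichever control sample was left out. Aox1a, the alternative oxidase of mitochondria, stood at 88.2, 91.4 and 84.6 FPKM in the control samples, at 39.7, 47.5 and 50.6 under submergence and at 64.8, 61.7 and 57.8 under flooding. Aox1a was thus lowest in the submergence samples, with flooding between them and the control. It fell by 0.94 under submergence (adjusted p = 0.00197, limma) and by 0.52 under flooding (adjusted p = 0.00271). The sulfotransferase gene Sot12 also fell in both, by 1.24 (adjusted p = 0.000893) and 1.00 (adjusted p = 0.0236, limma). The auxin glucosyltransferase gene Ugt74e2 fell by 2.21 under submergence (adjusted p = 0.00291, limma) and changed by -1.5 under flooding (adjusted p = 0.119). Om66 (listed as Hsr4), an ATPase of the outer mitochondrial membrane, went the other way. Om66 had 20.2, 16.3 and 25.1 FPKM in the control samples, 45.9, 102 and 96.6 under submergence and 213, 159 and 147 under flooding, with changes of 1.92 (adjusted p = 0.0088, limma) and 3.07 (adjusted p = 2.91e-05).

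The stress and abscisic acid factors were listed by role, and not as a branch of the family. Of the 9 members listed 5 rose under flooding, beside 11.4% of all genes tested. Under submergence 1 of 9 rose, beside 9.03% of all genes, and 0 fell in either stress. The median log2 fold changes of the 9 members were 0.75 under flooding and 0.78 under submergence. The 4 members not called under flooding were Nac002, Nac003, Nac047 and Nac096. All 9 had a log2 fold change above 0 in each stress. Over all tested members, 40 of 59 did so under submergence and 36 of 58 under flooding. The sign was not firm throughout. Under submergence Nac003 ran from -0.21 to 0.25 over its alternatives and Nac032 from -0.06 to 0.34, and under flooding Nac047 ran from -0.03 to 0.18. The summed level of the 9 members was 117 to 130.3 FPKM in the control samples, 164 to 284 under submergence and 203 to 306 under flooding. The sums of both stresses lay above those of the control and overlapped each other.

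Nac081, which encodes ATAF2, a factor induced by wounding and pathogens, was called in both stresses. Its level was 41.7, 39.2 and 47.2 FPKM in the control samples, 66.4, 87.0 and 113 under submergence and 139.8, 90.8 and 108 under flooding. All stressed samples lay above the control samples. Nac081 rose by 1.02 under submergence (SE 0.19, adjusted p = 0.012, limma) and by 1.38 under flooding (SE 0.16, adjusted p = 0.000684). The submergence call was lost without control replicate 1 or control replicate 2, with an adjusted p between 0.00151 and 0.056 over its alternatives.

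Nac102, known for a role in germination under low oxygen, was among the most abundant members. It had 41.3, 36.7 and 38.5 FPKM in the control samples, 51.7, 51.4 and 80.2 under submergence and 85.8, 52.5 and 61.4 under flooding. Stressed samples were all above the control samples and spread widely within each stress. The change was 0.62 under submergence (SE 0.18, adjusted p = 0.0522, limma) and 0.75 under flooding (SE 0.17, adjusted p = 0.0159), and only the second was called. It was lost without control replicate 2 or control replicate 3. Nac032, a repressor of anthocyanin synthesis, rose by 0.46 under flooding (SE 0.13, adjusted p = 0.0349, limma), from 3.80 to 4.47 FPKM in the control samples to 5.09 to 6.43. That call was held by 6 of 15 alternatives and lost whichever control sample was left out. Nac002, which encodes ATAF1, had 21.9 to 24.5 FPKM in the control samples and 23.0 to 32.7 under flooding, and was not called.

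NAC019 and NAC055 act downstream of MYC2 in jasmonate signalling and also respond to abscisic acid. Nac055 had 3.61, 3.05 and 4.46 FPKM in the control samples, 5.34, 9.51 and 19.99 under submergence and 16.1, 9.36 and 17.1 under flooding. All stressed samples lay above the control samples, and submergence replicate 3 was the highest of the 9. Nac055 changed by 1.43 under submergence (SE 0.44, adjusted p = 0.0661, limma) and rose by 1.87 under flooding (SE 0.25, adjusted p = 0.00132).

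Nac019 had 6.99, 4.71 and 5.19 FPKM in the control samples, 4.15, 9.90 and 21.4 under submergence and 21.8, 11.3 and 11.8 under flooding. Submergence replicate 1 was below every control sample and replicate 3 far above. Nac019 changed by 0.78 under submergence (SE 0.53, adjusted p = 0.362, limma) and rose by 1.34 under flooding (SE 0.27, adjusted p = 0.009), a call lost when all 9 samples entered 1 fit (adjusted p = 0.0782, with 0.00137 to 0.0782 over its alternatives). Of 5 reported targets of NAC019, NAC055 and RD26, 1 rose and 1 fell under flooding, beside 11.4% and 17.2% of all genes tested. Under submergence 0 rose and 1 fell, beside 9.03% and 8.45% of all genes. The salicylic acid synthesis gene Ics1 (listed as Eds16) rose by 0.69 under flooding (adjusted p = 0.00218, limma). The salicylic acid glucosyltransferase gene Sagt1 (listed as Ugt74f2) fell by 0.58 under submergence (adjusted p = 0.0217, limma) and by 0.63 under flooding (adjusted p = 0.00836). Its submergence call was lost without control replicate 1 or 3, or without submergence replicate 3. The other 3 targets, Bsmt1, Erd1 and Nye1, were not called. Whether the changes of the targets follow the reported regulation was not tested.

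Nac019 and Nac055 each have a member of another branch as neighbour, and the neighbours moved the opposite way. Nac018 lies 6333 bp from Nac019 on chromosome 1, and Nac056 lies 7235 bp from Nac055 on chromosome 3. NAC018 and NAC056, also named NARS2 and NARS1, are a related pair known from seed coat development. Nac056 had 17.5, 19.3 and 19.6 FPKM in the control samples, 6.43, 13.2 and 11.3 under submergence and 9.34, 11.6 and 11.2 under flooding. All its stressed samples lay below the control samples. Nac056 fell by 0.92 under submergence (SE 0.25, adjusted p = 0.0448, limma, held by 7 of 15 alternatives and lost whichever control sample was left out) and by 0.81 under flooding (SE 0.11, adjusted p = 0.00157). Nac018 had 9.58, 10.4 and 8.92 FPKM in the control samples, 4.30, 7.50 and 8.67 under submergence and 5.69, 5.16 and 5.31 under flooding. It changed by -0.55 under submergence (SE 0.25, adjusted p = 0.18, limma) and fell by 0.82 under flooding (SE 0.10, adjusted p = 0.00106). Among 13 pairs of members next to each other within 10000 bp, both were tested under flooding in 7. Both were called in only these 2 pairs, and in opposite directions in each. The pairs were looked at after the values were seen, and their arrangement was not tested.

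Nac047, known as SHYG for its role in upward leaf bending under waterlogging, was not called in any comparison. It had 3.04, 2.49 and 3.29 FPKM in the control samples, 3.66, 4.76 and 8.93 under submergence and 3.08, 3.53 and 2.73 under flooding. The submergence samples lay above both other groups, and flooding overlapped the control. The change was 0.86 under submergence (95% interval 0.12 to 1.6, adjusted p = 0.107, limma) and 0.08 under flooding (-0.31 to 0.47), and the direct difference between the stresses was -0.78 (adjusted p = 0.327). Without submergence replicate 1 the submergence rise was called. Aco5, the ethylene synthesis gene reported as its target, had 1.14 to 2.19 FPKM in the control samples and 0.97 to 2.00 under stress and was not called.

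Factors of leaf senescence were split between rises and falls. Of 10 members tested, 3 rose and 3 fell under flooding, beside 11.4% and 17.2% of all genes tested. Under submergence 2 rose and 1 fell, beside 9.03% and 8.45% of all genes. The summed level of these 10 members overlapped between the groups, at 111 to 141 FPKM in the control samples, 102 to 118 under submergence and 114 to 136 under flooding. The rises were Nac090 and Nac061, given above, and Nac087. NAC087 and its relative NAC046 are known from cell death in the root cap, and NAC046 from chlorophyll breakdown. Nac087 had 2.58, 1.99 and 2.37 FPKM in the control samples, 3.01, 7.16 and 5.30 under submergence and 8.44, 8.34 and 4.35 under flooding. All stressed samples lay above the control samples. Nac087 changed by 1.05 under submergence (SE 0.30, adjusted p = 0.0555, limma) and rose by 1.51 under flooding (SE 0.26, adjusted p = 0.005). Nac046 had 1.19 to 1.85 FPKM in the control samples and 2.09 to 2.25 under flooding, a change of 0.47 that was not called (adjusted p = 0.128, limma).

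The falls included Nac083, which encodes VNI2, a repressor of vessel formation that also prolongs leaf life. Nac083 (AT5G13180, chr5:4196256-4197940) had 83.4, 69.6 and 46.5 FPKM in the control samples, 40.5, 31.8 and 28.9 under submergence and 21.6, 27.2 and 19.4 under flooding. The 3 groups did not overlap, and the control samples spread widely. Nac083 fell by 0.95 under submergence (SE 0.23, adjusted p = 0.0297, limma) and by 1.52 under flooding (SE 0.22, adjusted p = 0.00218). The submergence call was held by 9 of 15 alternatives and the flooding call by all.

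Nac059 and Nac092, which encode the senescence promoters ORS1 and ORE1, are close relatives and both had low levels. Nac059 had 2.39, 2.72 and 2.95 FPKM in the control samples, 0.37, 1.90 and 0.78 under submergence and 1.14, 1.49 and 0.62 under flooding. All stressed samples were below the control samples. Nac059 changed by -1.56 under submergence (SE 0.49, adjusted p = 0.0702, limma) and fell by 1.31 under flooding (SE 0.30, adjusted p = 0.0163), a call lost without control replicate 2 or control replicate 3. Nac092 had 2.83, 2.73 and 2.78 FPKM in the control samples, 0.79, 2.76 and 2.25 under submergence and 1.70, 1.68 and 1.23 under flooding. Its flooding samples lay below the control samples, and its submergence samples overlapped them. Nac092 changed by -0.67 under submergence (SE 0.41, adjusted p = 0.318, limma) and fell by 0.83 under flooding (SE 0.18, adjusted p = 0.0124). The Nac092 call was lost whichever of the 3 control samples was left out.

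Nac092 belongs to the members that are targeted by the microRNA miR164, which guides cleavage of their transcripts. The mature sequence was read from the RefSeq annotation of TAIR10.1 at chr2:19520770-19520790 on the plus strand, and is shown with its seed, bases 2 to 8, in capitals. Complementary sites were searched in the transcripts of all 92 members, and those with at most 4 mismatches are shown with the mismatched bases in capitals, G:U pairs being counted as mismatches.
miR164a: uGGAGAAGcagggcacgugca
NAC021: AgcacgtAccctgcttctcca
NAC079: tTTacgtgccctgcttctcca
NAC100: tCTacgtgccctgcttctcca
NAC054: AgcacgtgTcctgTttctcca
NAC098: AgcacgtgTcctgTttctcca
NAC092: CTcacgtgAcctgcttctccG
The sites of Nac021 (chr1:20947142-20947162, minus strand), Nac079 (chr5:2436958-2436978, plus strand) and Nac100 (chr5:24701687-24701707, minus strand) had 2 mismatches. Those of Nac054 (chr3:5111137-5111157, plus strand) and Nac098 (chr5:21902301-21902321, minus strand) had 3, and that of Nac092 (chr5:15858797-15858817, minus strand) had 4. All 6 lay in coding sequence. The best site in any other member had 6 mismatches, so these 6 were the members with a site, and they are also the 6 fixed in the list of known targets.

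Of these 6 targets 4 were tested, of which 0 were called under submergence, beside 17.5% of all genes tested. Under flooding 0 rose and 2 fell, beside 11.4% and 17.2% of all genes. The second fall was that of Nac021, also named NAC1, which acts in auxin signalling during lateral root growth. Nac021 had 8.31, 7.87 and 7.2 FPKM in the control samples, 3.69, 6.57 and 7.64 under submergence and 4.53, 5.94 and 3.35 under flooding, with only the flooding samples all below the control. It changed by -0.44 under submergence (SE 0.25, adjusted p = 0.284, limma) and fell by 0.78 under flooding (SE 0.20, adjusted p = 0.0242), a call held by 9 of 15 alternatives. Nac100 had 0.72 to 0.91 FPKM in the control samples and 0.92 to 1.34 under flooding and was not called. Nac079 had 0.95 to 1.45 and 0.67 to 1.78 and was not called either. Nac054 and Nac098, the organ boundary genes Cuc1 and Cuc2, reached at most 0.18 and 0.56 FPKM and were not tested. The 3 microRNA genes Mir164a, Mir164b and Mir164c were listed at 0 in all 9 samples of these poly(A) libraries, so the microRNA itself was not measured.

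Members that build xylem and secondary walls were low, at 8.24 to 10.6 FPKM summed over 14 genes in the control samples, 11.4 to 15.2 under submergence and 8.75 to 12.8 under flooding. The sums under submergence lay above those of the control. The 4 marker genes of xylem, none of which was listed at 0 throughout, had sums of 11.5 to 14.2 FPKM in the control samples, 14.3 to 20.5 under submergence and 10.3 to 17.6 under flooding, and submergence replicate 1 was the highest of the 9 samples in both sums. None of the markers was called, and their part in the result was not tested. In such bulk samples a change in the number of cells of a type and a change of RNA per cell cannot be told apart. Of 11 members tested under submergence all had a log2 fold change above 0, beside 40 of 59 over the whole family. This list leaves out Nac083, given above as a repressor of vessel formation. Nac083 fell by 0.95 under submergence and by 1.52 under flooding. The sign was not firm for Nac101, at 0.05 with -0.33 to 0.28 over its alternatives, and Nac076, at 0.15 with -0.14 to 0.38. Of the 11, 1 was called, Nac104, beside 9.03% of all genes called up. NAC104, also named XND1, represses the formation of vessels. Nac104 had 0.42, 0.50 and 0.73 FPKM in the control samples, 1.06, 1.35 and 1.30 under submergence and 1.52, 1.40 and 1.57 under flooding. Its groups did not overlap. Nac104 rose by 1.06 under submergence (SE 0.27, adjusted p = 0.0384, limma, held by 7 of 15 alternatives) and by 1.32 under flooding (SE 0.27, adjusted p = 0.00978). Nac030, which encodes the vessel master regulator VND7, had 0.41 to 0.60 FPKM in the control samples, 0.80 to 1.19 under submergence and 0.39 to 0.94 under flooding and was not called. Of the 4 members that act in phloem 2 were tested and 0 were called. The DNA damage list had 2 members, of which 1 was tested and 0 were called.

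The largest fall of the family under flooding was that of Nac041 (AT2G33480, chr2:14180978-14182439), the second most abundant member in the control samples. It had 62.8, 53.0 and 52.1 FPKM in the control samples, 26.7, 15.8 and 18.3 under submergence and 16.6, 16.4 and 13.5 under flooding. All stressed samples were well below the control samples, and the 2 stresses overlapped. Nac041 fell by 1.49 under submergence (SE 0.19, adjusted p = 0.00359, limma) and by 1.85 under flooding (SE 0.12, adjusted p = 3.16e-05), both held under all 15 alternatives. Its upstream window held none of the motifs searched.

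The falls of Nac088 and Nac027 were smaller, and both genes share sequence with another gene. Nac088 lies wholly within Sip1-2, an aquaporin gene on the opposite strand, over 444 bp, and the sources used here do not state whether reads were counted by strand. It had 3.47, 4.30 and 4.75 FPKM in the control samples, 2.7, 1.6 and 2.42 under submergence and 2.20, 1.70 and 2.24 under flooding. All stressed samples lay below the control samples, with falls of 0.89 under submergence (adjusted p = 0.0351, limma) and 0.99 under flooding (adjusted p = 0.00591). The submergence call was held by 7 of 15 alternatives and lost whichever control sample was left out. Nac027 overlaps AT1G64100 on the same strand over 514 bp. It had 21.4, 18.2 and 21.3 FPKM in the control samples, 14.9, 15.7 and 16.6 under submergence and 21.2, 19.5 and 14.7 under flooding, so only the submergence samples were separate from the control. Nac027 fell by 0.36 under submergence (SE 0.09, adjusted p = 0.0404, limma), a call held by 3 of 15 alternatives, and changed by -0.15 under flooding (adjusted p = 0.507).

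**Figure D3:**
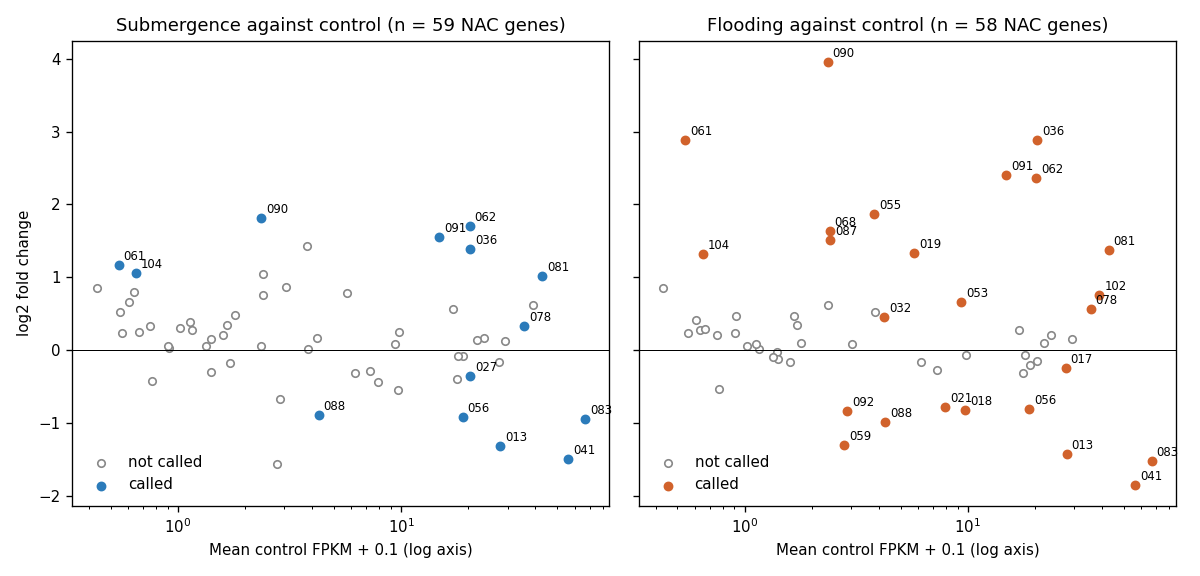
Log2 fold change of each tested NAC transcript against its mean control FPKM plus 0.1 on a log axis, for submergence (59 genes) and flooding (58 genes), with filled, numbered points for called members. Both of the most abundant members, Nac083 and Nac041, lie below 0 in each panel, and the called rises cover control means from 0.44 (Nac061) to 42.7 (Nac081).

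Moving water was then compared directly with still water. No NAC transcript passed the threshold among 58 tested, and 0.0% of all 18864 genes did (limma). At an unadjusted p under 0.05 there were 11 members, beside 14.7% of all genes. The samples of the 2 stresses did not overlap in 15 of the members tested, beside 21.6% of all genes. The largest differences were those of Nac090 at 2.14 (SE 0.17, adjusted p = 0.107, limma), Nac061 at 1.72 (SE 0.22, adjusted p = 0.107) and Nac036 at 1.5 (SE 0.23, adjusted p = 0.112). Their 95% intervals, not adjusted for the number of genes, were 1.73 to 2.55, 1.21 to 2.24 and 0.95 to 2.04. With all 9 samples in 1 fit these 3 transcripts, and no other member, were called higher under flooding, beside 0.477% of all genes called up and 0.747% called down in that fit (adjusted p = 0.0333 for Nac090, 0.0334 for Nac061 and 0.0333 for Nac036, limma). Over all alternatives the adjusted p of Nac090 ran from 0.0333 to 0.369, that of Nac061 from 0.0334 to 0.369 and that of Nac036 from 0.0333 to 0.379. Without submergence replicate 1 Nac090 was the only member called, beside 0.0213% of all genes called up and 0.00531% called down. For Nac091 the difference was 0.84 (0.30 to 1.38) and for Nac062 it was 0.67 (0.23 to 1.1), and neither was called in the comparison of these 6 samples.

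All 15 up-regulated members were called under flooding and 8 of them under submergence, so a high level under flooding follows largely from how they were chosen. As a description, submergence lay between control and flooding in mean FPKM for 15 of these 15, beside 69.6% of all 2512 genes up-regulated in either stress. The samples of the 2 stresses did not overlap in 9 of them, beside 42.2% of those genes. Of the 2512 genes 2137 were called under flooding, while all 15 members were, so these shares are not of like sets. Of the 11 down-regulated members submergence lay between for 8, beside 77.6% of all 3607 genes down-regulated in either stress. In 2 of them, Nac083 and Nac017, the stresses did not overlap, beside 40.7% of those genes. For several members the interval of the difference was wide. That of Nac019 ran from -0.79 to 1.92 and that of Nac059 from -1.1 to 1.62, so the data do not show whether still and moving water differ for them. Nac013 had a narrower interval, from -0.59 to 0.38.

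**Figure D4:**
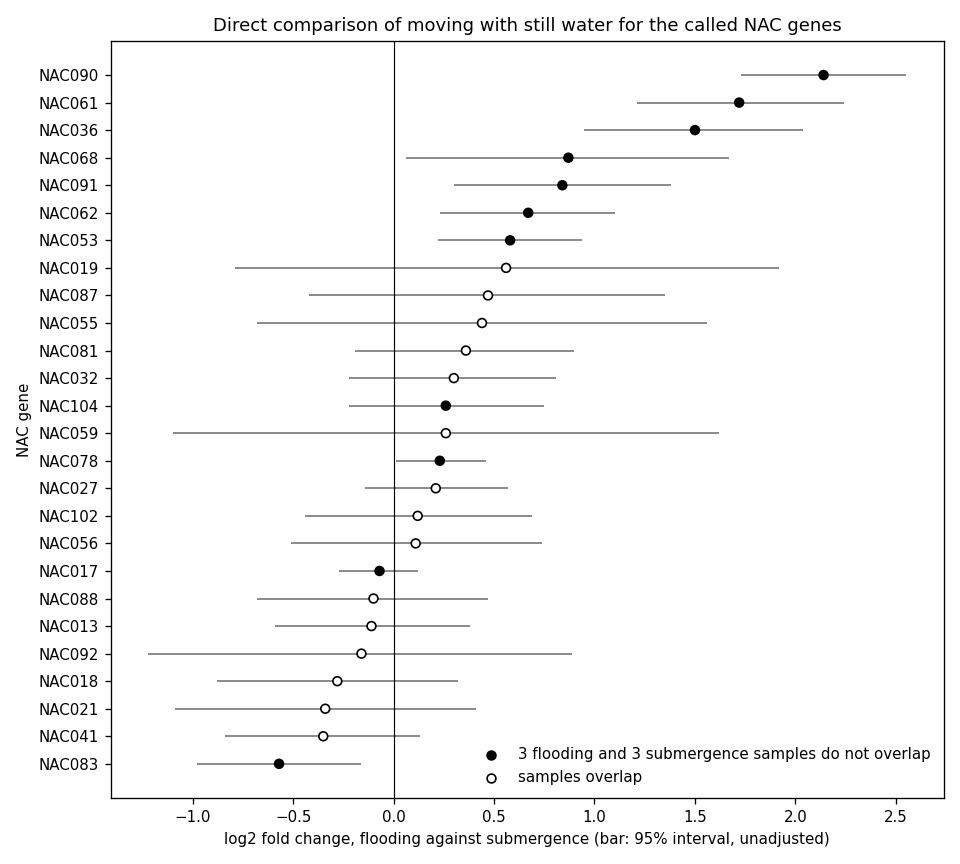
Log2 fold change of flooding against submergence for the 26 called NAC transcripts with unadjusted 95% intervals, filled where the 3 flooding and 3 submergence samples do not overlap. Nac090, Nac061 and Nac036 lie highest at 2.14, 1.72 and 1.5, and many intervals of the other members include 0.

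Of the 9 NAC genes listed under other names, 4 were tested and 1 was called under flooding, beside 28.5% of all genes tested. The called gene was Rd26, a relative of Nac019 and Nac055 known for its response to drought and abscisic acid. Rd26 had 20.3, 18.9 and 20.3 FPKM in the control samples, 22.0, 20.5 and 46.6 under submergence and 43.6, 22.8 and 41.2 under flooding. Flooding samples all lay above the control samples, and submergence replicate 3 was the highest of its group as for Nac019 and Nac055. Rd26 rose by 0.80 under flooding (SE 0.23, adjusted p = 0.0384, limma) and changed by 0.48 under submergence (adjusted p = 0.314). The flooding call of Rd26 was lost whichever control sample was left out, and without flooding replicate 1 or 3. The membrane-tethered Ntl9, the DNA damage regulator Sog1 and the longevity factor Jub1 were not called, and the root cap genes Fez, Brn1 and Brn2 were listed at 0 in all samples.

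Several well-expressed members were not called in either stress. Nac082, known from ribosomal stress, had 27.8 to 30.7 FPKM in the control samples, 29.6 to 37.4 under submergence and 27.4 to 35.6 under flooding. Nac035, also named LOV1 and known for delaying flowering, had 17.7 to 21.3, 16.3 to 19.3 and 14.9 to 19.3 FPKM. Both overlapped between all groups. Nac089, a membrane-tethered factor of endoplasmic reticulum stress, had 15.6 to 18.9 FPKM in the control samples and 12.2 to 14.9 under submergence without overlap, a change of -0.40 that just missed the threshold (adjusted p = 0.0553, limma). Nac029, the senescence factor NAP, had 14.1 to 22.2 FPKM in the control samples and 19.2 to 37.6 under submergence, and was not called. Nac016, a senescence factor at a low level, had 1.83 to 3.03 in the control samples and 3.43 to 3.47 under flooding (log2 fold change 0.62, adjusted p = 0.0588, limma).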

How the data were processed

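RNA-Seq of poly(A) RNA was analysed in 9 shoot samples. Per the study's methods the authors mapped trimmed reads to TAIR10 with STAR, assigned them to genes with featureCounts and ran DESeq2 on the counts (version 1.20.0 per the submitters' processing notes). The authors deposited FPKM values with 2 decimals. The table's name refers to RSEM, and which tool made the values is not settled by the sources used here. Read counts were not used here, so a count test could not be run, depth per gene is unknown and precision is given by the spread of 3 samples.

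Groups and replicate numbers came from the sample labels. Columns of stressed samples are named Stress1 and Stress2, and headings of the study's plots of each stress against control tie the first to submergence and the second to flooding. The number of columns of no listed sample was 0. FPKM values were not rescaled. limma 3.58.1 in R 4.3.3 (lmFit, eBayes with trend, two-sided) was run per comparison on log2(FPKM + 0.1), so fold changes of low genes are understated. The pipeline was tested on simulated data. Exact permutation tests of 3 against 3 cannot give a p under 0.1 and were not used.

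Members and gene lists were chosen with earlier results of these data known. Lists were matched by gene ID. Full statistics were given to called members with a mean of at least 1 FPKM in a group and no overlap between the groups, and to the 5 members highest in the control. Summaries used Python 3.11.15 with pandas 2.3.3, plots matplotlib 3.10.9, and windows were aligned with Biopython 1.88. All 92 members had identical coordinates in the deposited table and in RefSeq's TAIR10.1, from which sequences were read. The main fits did not pair samples by replicate number. Deviations of same-numbered samples correlated between -0.15 and 0.47, and those of other samples between -0.50 and 0.37. The highest value was that of replicate 3 of the 2 stresses, so these correlations cannot exclude pairing. A fit with a replicate block is given among the alternatives. Alternatives changed the pseudocount (1), the filter (none, or a mean of 2 FPKM), the scaling (quantile normalization, or median-of-ratios), the fit (no trend in eBayes, 1 fit of all 9 samples, or a replicate block) and the call (2-fold change or more), or left out 1 sample.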

Additional observations from a re-analysis of the deposited data

How the results depend on the processing

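No called log2 fold change of a named NAC transcript changed sign under any alternative. For submergence, 8 members were up-regulated, and 5 with quantile normalization. The 6 members down-regulated under submergence became 3 with no filter, 3 with no trend in eBayes and 2 where a 2-fold change was required. Leaving out 1 sample gave 4 to 14 up, the highest without submergence replicate 1 and 4 or 5 without any control replicate or submergence replicate 2, and 2 to 5 down, the lowest without control replicate 1, control replicate 2 or submergence replicate 3. Over all genes under submergence, the 1698 up became 875 to 1716 over the other settings and 890 to 2019 without 1 sample. The 1590 down became 217 to 2199 and 489 to 2187. For flooding, the 15 members up became 13 to 15 without 1 sample. The 10 down became 4 where a 2-fold change was required and 6 to 10 without 1 sample, the lowest without control replicate 2 or 3. Over all genes under flooding, the 2137 up became 1201 to 2622 over the other settings and 1595 to 2697 without 1 sample. The 3229 down became 456 to 3961 and 1643 to 3436. For flooding against submergence, 0 members were called up, 3 with 1 fit of all 9 samples and 0 to 1 without 1 sample. Over all genes these counts were 0, 90 and 0 to 4. The cause of these changes was not tested. With a replicate block, member counts were 7 up and 4 down under submergence, 15 up and 9 down under flooding and 0 between the stresses. Median-of-ratios rescaling moved the median change of all genes under flooding from -0.101 to -0.004 and gave 16 members up and 9 down. Of the calls, 12 of 25 under flooding and 6 of 14 under submergence held under all 15 alternatives. Low levels limit Nac061, Nac104 and Nac059, and no depth was at hand for single genes.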
